A study of Mus musculus with 2 samples.

Results

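The 44 collagen chain genes of the mouse were followed among the 31253 genes counted in single cells of the aneurysmal abdominal aorta. They were taken by symbol alone: Col, a type number, the letter a and a chain number. The rule itself used no measured value, though it was chosen with earlier results of these data known. Porcine pancreatic elastase (PPE) was infused to produce the aneurysms, and single-cell libraries were made with BD Rhapsody. C57BL/6J mice given PPE gave the control library (WT). Mice given PPE and carrying a global deletion of Gsdme, the gene of the pore-forming protein gasdermin E, gave the second library (Gsdme-KO). Both libraries thus came from elastase-treated aortas, and no aorta without elastase was analysed here. The number, sex and age of the mice and the deleted part of Gsdme are not given in the sources used here. Each group had 1 library. Differences between libraries therefore have no replicate check, no test was possible, and 95% intervals cover counting error alone and describe these libraries rather than the genotypes. Where a pair of values is given, WT comes first and Gsdme-KO second, and a ratio is Gsdme-KO over WT.

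Collagens are trimers of alpha chains wound around each other along stretches in which glycine recurs at a fixed spacing. Fibrillar chains (types I, III and V among them) build the tensile fibres of the arterial adventitia and media. Type IV chains form the sheet of basement membranes, type VI chains form beaded filaments around cells, and FACIT chains such as Col12a1 and Col14a1 sit on the surface of fibrils. In the artery, fibroblasts of the adventitia and smooth muscle cells of the media are the known producers, and endothelial cells add basement membrane chains. The aorta was digested with collagenase before capture, and the counts are of transcripts, not of deposited protein.

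The defining repeat of the family could be read from the transcripts. In the longest open reading frame of the protein-coding GENCODE M21 transcripts, the longest unbroken run of triplets that open with a glycine codon was 344 triplets in Col3a1, 339 in Col1a2 and 338 in Col1a1. All 11 fibrillar members had runs of 216 to 344 triplets. The other families had shorter ones, with 39 to 66 triplets in the 6 type IV chains, 37 to 87 in the 6 beaded filament chains and 30 in both multiplexins. Type IV chains carried the repeat in many pieces: Col4a1 had 22 runs of 5 or more triplets, which together covered 79.6% of its 1669 codons. Col14a1 carried 14.01% of its 1798 codons in such runs.

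Several members lie beside each other in the mm10 genome. Col4a1 (chr8:11198423-11312826, minus strand) and Col4a2 (chr8:11312805-11449287, plus strand) start 21 bases apart and run in opposite directions. Col4a3 and Col4a4 on chromosome 1 start 72 bases apart in the same head-to-head way, and Col4a5 and Col4a6 on chromosome X start 1309 bases apart. Col6a5 (chr9:105856078-105960643) and Col6a6 (chr9:105687809-105828160) follow each other on the minus strand.

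Upstream sequences are shown for 5 chains that the results below turn on: Col3a1, abundant in fibroblast-like cells, Col8a1 and Col11a1, which stood highest in smooth muscle-like cells, and the neighbours Col6a5 and Col6a6. They come from RefSeq's GRCm38.p6 promoter windows and are written 5′ to 3′ on the gene's strand. Each ends at the last base before the annotated starts. Capitals mark CCAAT or GGGCGG on either strand (ATTGG and CCGCCC on the other strand). In these windows no base was shared by matches of both motifs. The windows are chr1:45311288-45311537 (plus strand) for Col3a1, chr16:57754738-57754987 (minus) for Col8a1, chr3:114030290-114030539 (plus) for Col11a1, chr9:105960644-105960893 (minus) for Col6a5 and chr9:105828161-105828335 (minus) for Col6a6.
Col3a1: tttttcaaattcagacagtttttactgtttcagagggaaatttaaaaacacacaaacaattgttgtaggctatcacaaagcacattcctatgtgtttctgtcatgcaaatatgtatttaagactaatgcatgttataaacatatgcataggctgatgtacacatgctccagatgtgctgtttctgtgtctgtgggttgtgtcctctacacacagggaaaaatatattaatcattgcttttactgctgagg
Col8a1: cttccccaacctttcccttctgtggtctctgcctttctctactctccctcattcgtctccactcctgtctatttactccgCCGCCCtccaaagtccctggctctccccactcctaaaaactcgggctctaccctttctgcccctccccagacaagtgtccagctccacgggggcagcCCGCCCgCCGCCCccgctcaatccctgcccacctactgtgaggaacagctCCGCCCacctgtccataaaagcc
Col11a1: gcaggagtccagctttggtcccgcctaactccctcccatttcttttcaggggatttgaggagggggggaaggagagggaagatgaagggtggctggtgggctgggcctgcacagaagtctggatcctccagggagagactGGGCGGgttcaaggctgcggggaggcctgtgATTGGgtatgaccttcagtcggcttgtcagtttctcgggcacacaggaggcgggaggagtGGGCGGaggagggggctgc
Col6a5: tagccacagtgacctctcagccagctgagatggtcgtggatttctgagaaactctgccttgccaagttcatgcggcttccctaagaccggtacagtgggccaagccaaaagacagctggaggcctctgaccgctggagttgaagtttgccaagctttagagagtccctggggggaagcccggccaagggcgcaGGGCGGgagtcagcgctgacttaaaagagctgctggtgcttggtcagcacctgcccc
Col6a6: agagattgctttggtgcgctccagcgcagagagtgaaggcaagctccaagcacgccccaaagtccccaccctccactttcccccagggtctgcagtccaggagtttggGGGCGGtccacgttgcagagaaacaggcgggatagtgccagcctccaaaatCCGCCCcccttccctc

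The window of Col3a1 held neither motif and had 35.2% G and C. Col8a1 held 4 matches of GGGCGG, Col11a1 held 2 with 1 CCAAT, Col6a5 held 1 and Col6a6 held 2. Promoter windows of 300 bases were found for 35 of the 44 members. Of these, 12 (34.3%) held CCAAT, beside 37.4% of all 32851 windows, and 22 (62.9%) held GGGCGG, beside 35.7% of all. Collagen windows had a median of 60.0% G and C, against 52.7% over all windows. TATAAA was present in 14.3% of collagen windows and 13.6% of all. These matches are letters in a window and were not tied to any level below.

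The counts are taken as UMIs (unique molecular identifiers, 1 per transcript captured) from the platform and STARsolo, which the labels do not state. There were 38988898 UMIs over 7736 barcodes of WT and 52532964 over 9034 barcodes of Gsdme-KO. The libraries had 73 barcodes in common. Filtering left 7619 WT and 8783 Gsdme-KO cells with medians of 3835 and 4060 UMIs. Levels are UMIs of a gene per 1000000 UMIs (CPM). Gsdme was at 5.53 and 2.55 CPM, from 215 and 133 UMIs, and transcript tags outside the deleted part check nothing. Cells fell into 31 clusters, formed without any collagen gene, and clusters were named by marker genes. Doublets were not removed. Of the 44 members, 23 had at least 500 UMIs over both libraries, 12 others had at least 50 and 9 had fewer. Col1a1, Col3a1 and Col1a2 held 82.5% of the 1471073 collagen UMIs, and the 10 most abundant chains held 96.4%.

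Collagen transcripts were concentrated in stromal cells of both libraries. The 6 stromal classes (adipocyte, mesothelial, both endothelial, smooth muscle and fibroblast-like) held 93.4% of collagen UMIs in WT and 95.3% in Gsdme-KO. Fibroblast-like cells (956 WT and 1536 Gsdme-KO cells) held 85.9% and 89.8% by themselves. The 9 named immune classes together held 3.06% and 1.53%, and the 9 unnamed clusters 3.52% and 3.15%. Over whole libraries collagen made up 1.31% of UMIs in WT and 1.84% in Gsdme-KO, and fibroblast-like cells were 12.55% and 17.5% of kept cells.

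Within each class the collagen share of all UMIs gave another order. Smooth muscle-like cells (64 WT and 175 Gsdme-KO cells) had the highest share in WT, 6.68% (6.61 to 6.76), and 4.195% in Gsdme-KO (4.15 to 4.24). Their ratio of Gsdme-KO over WT was 0.628 (0.619 to 0.638). Fibroblast-like cells had 4.93% (4.92 to 4.95) in WT and 4.83% (4.82 to 4.84) in Gsdme-KO, a ratio of 0.979 (0.976 to 0.983). Smooth muscle-like cells thus stood above fibroblast-like cells as a whole in WT and below them in Gsdme-KO. Large fibroblast-like clusters differed, with 6.35% and 6.77% in cluster 3, 3.21% and 3.08% in cluster 4, and 4.73% and 5.025% in cluster 7. Mesothelial-like cells (51 and 63 cells) had 1.37% and 1.19%, and endothelial-like cells (123 and 167) had 0.747% and 0.632%. The fibroblast-like ratio was 1.07 with TMM factors, which moved the median of all genes in that class by 0.12 on the log2 scale, so its side of 1 depends on the scaling. The smooth muscle-like ratio lay between 0.612 and 0.687 in the alternatives.

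**Figure D1:**
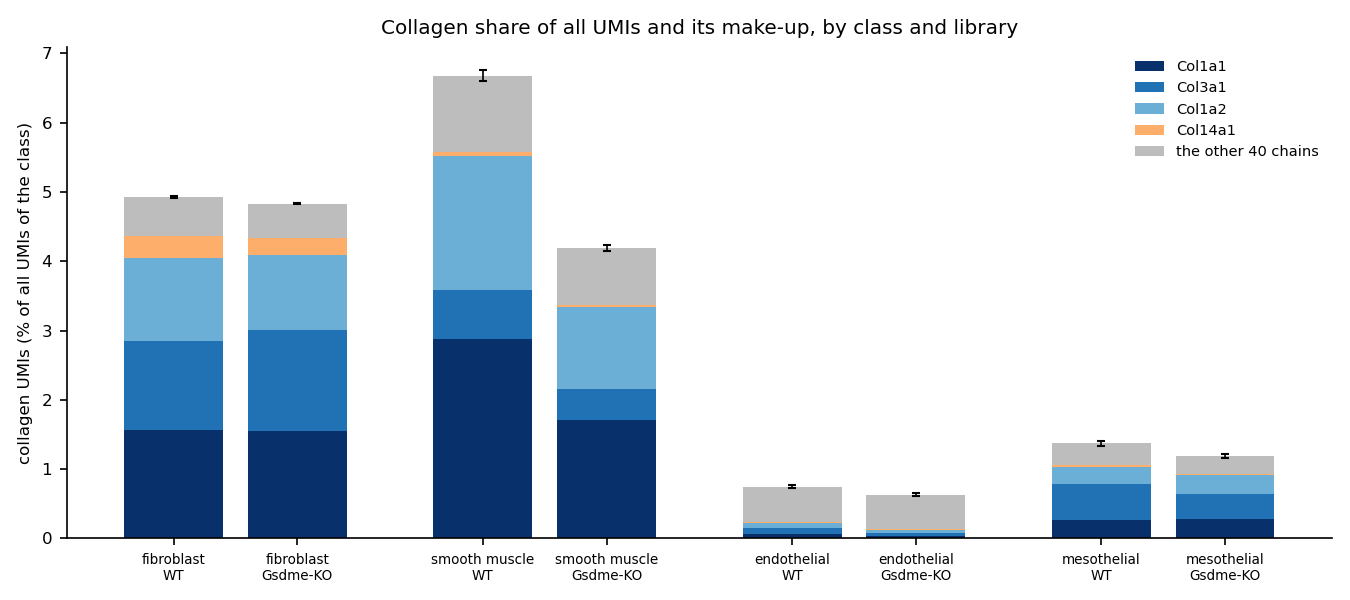
Stacked bars give collagen UMIs as a percent of all UMIs of a class, from 0, for WT and Gsdme-KO in 4 stromal classes, split into the 4 most abundant chains and the other 40; black bars are 95% binomial intervals of the total. The smooth muscle-like bars stand at 6.68% in WT and 4.195% in Gsdme-KO, and the fibroblast-like bars at 4.93% and 4.83%.

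The make-up of collagen differed between these classes, though Col1a1 led in both fibroblast-like and smooth muscle-like cells. In fibroblast-like cells Col1a1 was 31.7% of collagen UMIs in WT and 32.1% in Gsdme-KO, Col3a1 26.1% and 30.2%, Col1a2 24.3% and 22.3%, and Col14a1 6.57% and 5.06%. In smooth muscle-like cells Col1a1 was 43.0% and 40.7%, while Col3a1 was only 10.6% and 10.7%. Endothelial-like collagen was led by Col4a1, with 29.1% and 30.04%, and Col8a1 took 10.5% and 16.6% there. Mesothelial-like collagen was led by Col3a1, with 38.1% and 30.5%.

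The fibrillar chains were the most abundant family, and over whole classes the type I chains stood higher in smooth muscle-like than in fibroblast-like cells. Col1a1, the main chain of type I collagen, was at 15626 CPM (15544 to 15708) in WT and 15496 CPM in Gsdme-KO fibroblast-like cells. It was at 28727 and 17055 CPM in smooth muscle-like cells, in mesothelial-like cells at 2635 and 2833 CPM and in endothelial-like cells at 612 and 286 CPM. Col1a2, the partner chain of the type I trimer, followed the same order with 11965 and 10797 CPM in fibroblast-like and 19482 and 11779 CPM in smooth muscle-like cells. The order did not hold for each fibroblast-like cluster. In Gsdme-KO, cluster 3 had Col1a1 at 24914 CPM and Col1a2 at 17626 CPM, above the smooth muscle-like class, whereas clusters 4 and 7 were below it. UMIs of Col1a1 per UMI of Col1a2 were 1.31 (1.30 to 1.32) in WT and 1.44 (1.43 to 1.44) in Gsdme-KO fibroblast-like cells, and 1.48 and 1.45 in smooth muscle-like cells. Endothelial-like cells had fewer Col1a1 than Col1a2 UMIs in Gsdme-KO, at 0.768 (0.659 to 0.894) per UMI.

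Col3a1, the chain of the fine type III fibres, was highest in fibroblast-like cells, at 12883 and 14572 CPM. Smooth muscle-like cells had 7053 and 4501 CPM, mesothelial-like cells 5217 and 3625 CPM, and endothelial-like cells 907 and 543 CPM. Per UMI of Col1a1, fibroblast-like cells held 0.825 (WT) and 0.940 (Gsdme-KO) UMIs of Col3a1, and smooth muscle-like cells 0.246 and 0.264. Col5a1 and Col5a2, the type V chains that start fibrils, were at 687 and 729 CPM and at 997 and 1008 CPM in fibroblast-like cells. Smooth muscle-like cells had them at 1062 and 670 CPM and at 1888 and 1195 CPM. Col5a2 exceeded Col5a1 in all 4 classes, least in fibroblast-like cells, and in endothelial-like cells it was at 524 and 520 CPM beside 58.1 and 76.1 CPM of Col5a1. Among these 4 classes Col5a3 was highest in fibroblast-like cells, at 105 and 127 CPM, with 45.5 and 17.0 CPM in mesothelial-like cells.

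Chains known from cartilage were seen in smooth muscle-like cells. Col2a1, the main fibrillar chain of cartilage, had 138 and 209 CPM in smooth muscle-like cells. It had UMIs in 19 of 64 and 47 of 175 of these cells, against 0.314% and 0.260% of fibroblast-like cells and no endothelial-like cell. Median depths were 3626 and 3791 UMIs in smooth muscle-like and 8492 and 10218 in fibroblast-like cells. With each cell thinned to 1000 UMIs (8 and 31 smooth muscle-like cells left out) 16.1% and 15.97% of them held a UMI, and no fibroblast-like cell did. Col11a1, a fibrillar chain that joins type II and type V fibrils, was at 347 and 80.9 CPM, in 18 of 64 and 18 of 175 cells. Col10a1, the chain of hypertrophic cartilage, was at 52.9 and 66.0 CPM in 5 and 15 cells. Its 3′ end lies within the span of Nt5dc1 on the other strand. Nt5dc1 had 11.5 and 15.97 CPM in smooth muscle-like cells and 14.6 and 12.1 CPM in fibroblast-like cells. The part of Nt5dc1 in the Col10a1 counts was not tested. Of the cells with Col2a1, 5 in each library also held Col11a1. Col27a1, a widely expressed fibrillar chain, was at 48.3 and 37.3 CPM in smooth muscle-like and 10.3 and 15.5 CPM in fibroblast-like cells. Among the 4 stromal classes Col24a1 was highest in fibroblast-like cells, at 4.16 and 3.81 CPM, but unnamed cluster 13 stood higher in both libraries. Among named classes Col11a2 was highest in neutrophil-like cells of WT, at 9.13 and 11.6 CPM from 19 and 24 UMIs.

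The most abundant FACIT chain and the common type VI chains stood highest in fibroblast-like or mesothelial-like cells among these 4 classes. Col14a1 was at 3241 and 2444 CPM in fibroblast-like, 559 and 277 CPM in smooth muscle-like, 371 and 235 CPM in mesothelial-like and 147 and 112 CPM in endothelial-like cells. Col12a1 had its highest level in smooth muscle-like cells, at 382 and 237.5 CPM, with 175 and 124 CPM in fibroblast-like cells. Col16a1 was at 54.2 and 47.0 CPM in fibroblast-like and 55.2 and 31.9 CPM in smooth muscle-like cells. Col6a1 was at 750 and 582 CPM in fibroblast-like, 701 and 549 CPM in mesothelial-like and 225 and 291 CPM in smooth muscle-like cells. Col6a2, its constant partner, was at 548 and 499.9 CPM in fibroblast-like and 585 and 396.5 CPM in mesothelial-like cells. Col6a3, the remaining chain of the common trimer, was at 307 and 292 CPM in fibroblast-like and 301 and 240 CPM in smooth muscle-like cells but only 56.1 and 33.9 CPM in mesothelial-like cells, or 0.0800 and 0.0618 UMIs per UMI of Col6a1. Col6a5 and Col6a6, which can stand in for that chain, were at 379 and 161 CPM and at 51.9 and 17.5 CPM in fibroblast-like cells. In mesothelial-like cells Col6a5 was at 161 and 123 CPM. In endothelial-like cells it had 41 UMIs in WT, all from 2 cells, and 3 in Gsdme-KO. Col20a1 was low in all of these classes and at 5.06 and 3.08 CPM in fibroblast-like cells.

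Of the type IV chains, Col4a1 and Col4a2 were highest in endothelial-like cells among the 4 classes, and the other 4 in mesothelial-like or smooth muscle-like cells. Col4a1 stood at 2172 CPM (2061 to 2286) in WT and 1899 CPM (1818 to 1984) in Gsdme-KO endothelial-like cells. Smooth muscle-like cells had 1823 and 1274 CPM, fibroblast-like cells 612 and 520 CPM, and lymphatic endothelial-like cells (27 and 32 cells) 1535 and 1089 CPM. Its head-to-head neighbour Col4a2 followed at 736 and 621 CPM in endothelial-like, 600.1 and 555 CPM in smooth muscle-like and 166 and 155 CPM in fibroblast-like cells. UMIs of Col4a1 per UMI of Col4a2 lay between 2.30 and 4.47 in these 4 stromal classes. Col4a5 was highest in mesothelial-like cells in WT (221 and 165 CPM) and in smooth muscle-like cells in Gsdme-KO (120 and 182 CPM). Its neighbour Col4a6 was highest in mesothelial-like cells, at 63.1 and 63.6 CPM, and Col4a4 was at 31.5 and 8.48 CPM there, from 9 and 4 UMIs. Col4a3 had 59 UMIs in all and reached 14.9 CPM in Gsdme-KO smooth muscle-like cells.

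The short chain and multiplexin chains were spread over mural, endothelial and fibroblast-like cells. Col8a1, a network chain of the vessel wall, was at 2035 and 1727 CPM in smooth muscle-like, 780 and 1049 CPM in endothelial-like and 320 and 328 CPM in fibroblast-like cells. Its relative Col8a2 was scarcer, at 40.8 and 22.8 CPM in fibroblast-like cells, with 19 and 10 UMIs in smooth muscle-like cells beside 885 and 1622 of Col8a1. Col15a1 was at 1356 and 603 CPM in smooth muscle-like, 284.5 and 249 CPM in endothelial-like and 247 and 252.5 CPM in fibroblast-like cells. Col18a1, whose end fragment is endostatin, was at 216 and 534.5 CPM in smooth muscle-like, 247 and 301.5 CPM in endothelial-like and 312 and 250.2 CPM in mesothelial-like cells. Among the scarce chains, Col23a1, a transmembrane chain, was highest in lymphatic endothelial-like cells, at 69.2 and 122 CPM. Among the 4 stromal classes Col28a1 was highest in mesothelial-like cells, at 10.5 and 36.0 CPM, from 3 and 17 UMIs in 1 and 3 cells. Col9a3 had 153 UMIs and Col7a1, the anchoring fibril chain, 52, with no class above 10 CPM among the 4.

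The 9 members with fewer than 50 UMIs were Col19a1 (29 UMIs), Col6a4 (27), Col25a1 (26), Col17a1 (10), Col13a1 (4), Col9a1, Col9a2 and Col26a1 (2 each) and Col22a1 (1). They are listed for completeness, and no level is compared for them. Another gene model overlaps the span of 28 members, and the 3′ end of 5 of them (Col4a1, Col18a1, Col9a3, Col10a1 and Col4a3). The sources used here do not give strand use in the counting, so counts of overlapped members are uncertain to that extent. Slc19a1, on the strand opposite to the 3′ end of Col18a1, had at most 1 UMI in smooth muscle-like cells of either library. The part of Slc19a1 in the Col18a1 counts was not tested.

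Over the 35 members with at least 50 UMIs, the highest of the 4 stromal classes was smooth muscle-like for 14 in WT and 16 in Gsdme-KO. It was fibroblast-like for 9 and 11, mesothelial-like for 9 and 5, and endothelial-like for 3 and 3. The class was the same in both libraries for 24 of the 35. The 50 UMIs were counted over all cells, with no minimum in the class, so some of these places rest on very few UMIs. Col11a2 and Col9a3 led in WT mesothelial-like cells at 3.50 CPM each, and Col7a1 in smooth muscle-like cells at 4.60 and 3.19 CPM.

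**Figure D2:**
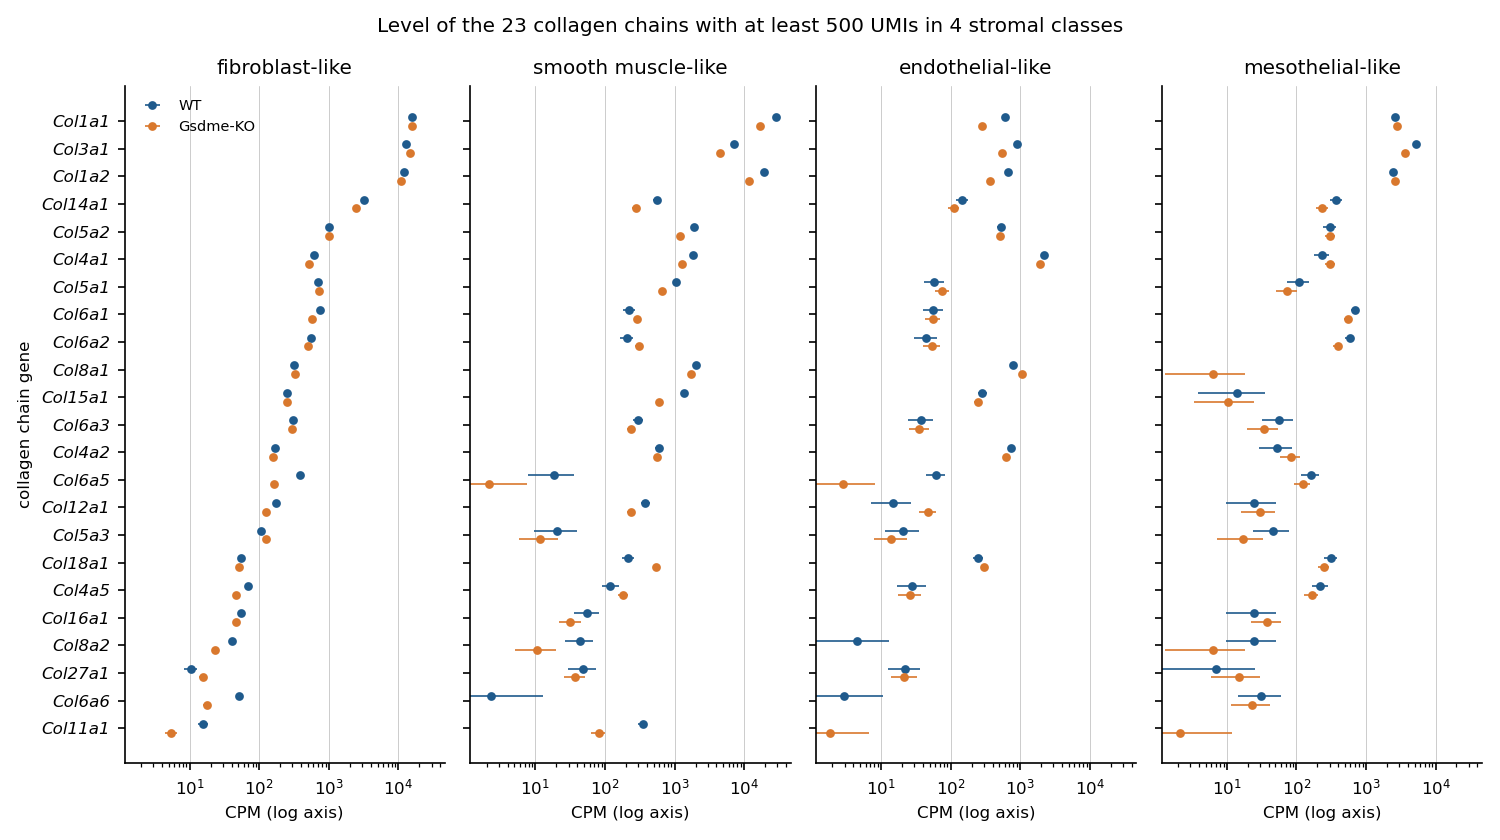
Points give the level of the 23 chains with at least 500 UMIs in CPM on a log axis, by class, in WT (blue) and Gsdme-KO (orange), with 95% Poisson intervals, and chains at 0 have no point. The Col1a1 points stand at 28727 and 17055 CPM for the smooth muscle-like class and 15626 and 15496 CPM for the fibroblast-like class, and Col4a1 leads the endothelial-like class.

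Between the libraries, the median chain ratio lay farthest from 1 in smooth muscle-like cells among the 4 stromal classes. Chains with at least 50 UMIs in a class were compared, and a ratio at or past 1.5-fold was counted as higher or lower. Of 21 chains compared in smooth muscle-like cells, 10 were lower in Gsdme-KO and 3 were higher. Over all 4303 genes compared there, 9.92% were lower and 10.8% higher. The median log2 ratio was -0.52 over the chains and -0.02 over all genes. Of 8 fibrillar chains 6 were lower, and all 3 FACIT chains were lower. The 3 type VI chains had ratios from 0.796 to 1.48.

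The type I, III and V chains were lower in Gsdme-KO smooth muscle-like cells by like factors. The ratio was 0.594 (0.580 to 0.608) for Col1a1, 0.605 (0.588 to 0.622) for Col1a2, 0.638 (0.609 to 0.669) for Col3a1, 0.631 (0.558 to 0.713) for Col5a1 and 0.633 (0.578 to 0.693) for Col5a2. Col4a1, the remaining one of the 6 most abundant besides Col14a1, had 0.699 (0.638 to 0.765). Col14a1 had 0.496 (0.414 to 0.593), Col12a1 0.622 (0.507 to 0.765), and Col16a1 0.579 with an interval that held 1 (0.327 to 1.03). Col15a1 was at 0.444 (0.395 to 0.4995). Col11a1 had the lowest ratio, 0.233 (0.175 to 0.309), and its 151 UMIs in WT came from 18 cells.

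The higher chains of the smooth muscle-like class were Col18a1 with 2.47 (1.98 to 3.12), Col4a5 with 1.52 (1.11 to 2.12) and Col2a1 with 1.51 (1.13 to 2.06). Of the 64 WT cells 32 held a Col18a1 UMI, and of the 175 Gsdme-KO cells 111 did. Its ratio was 1.44 when cells were limited to 10% mitochondrial UMIs. Col2a1 was at 0.949 as a mean over cells, so its direction rests on how cells are weighted, and Col12a1 was at 1.35 after thinning. Markers differed beside these chains. The summed level of 8 smooth muscle markers was 6506 and 9509 CPM, and that of 6 pericyte markers, 1 of them at 0 in WT, was 1710 and 2883 CPM. The 10 fibroblast markers, all detected in both libraries, summed to 2092 and 1784 CPM. Relative to fibroblast-like cells, the median fibroblast marker was at 6.3% and 9.3% and the highest at 71.6% and 59.2%. The part of all these markers in the collagen ratios was not tested.

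**Figure D3:**
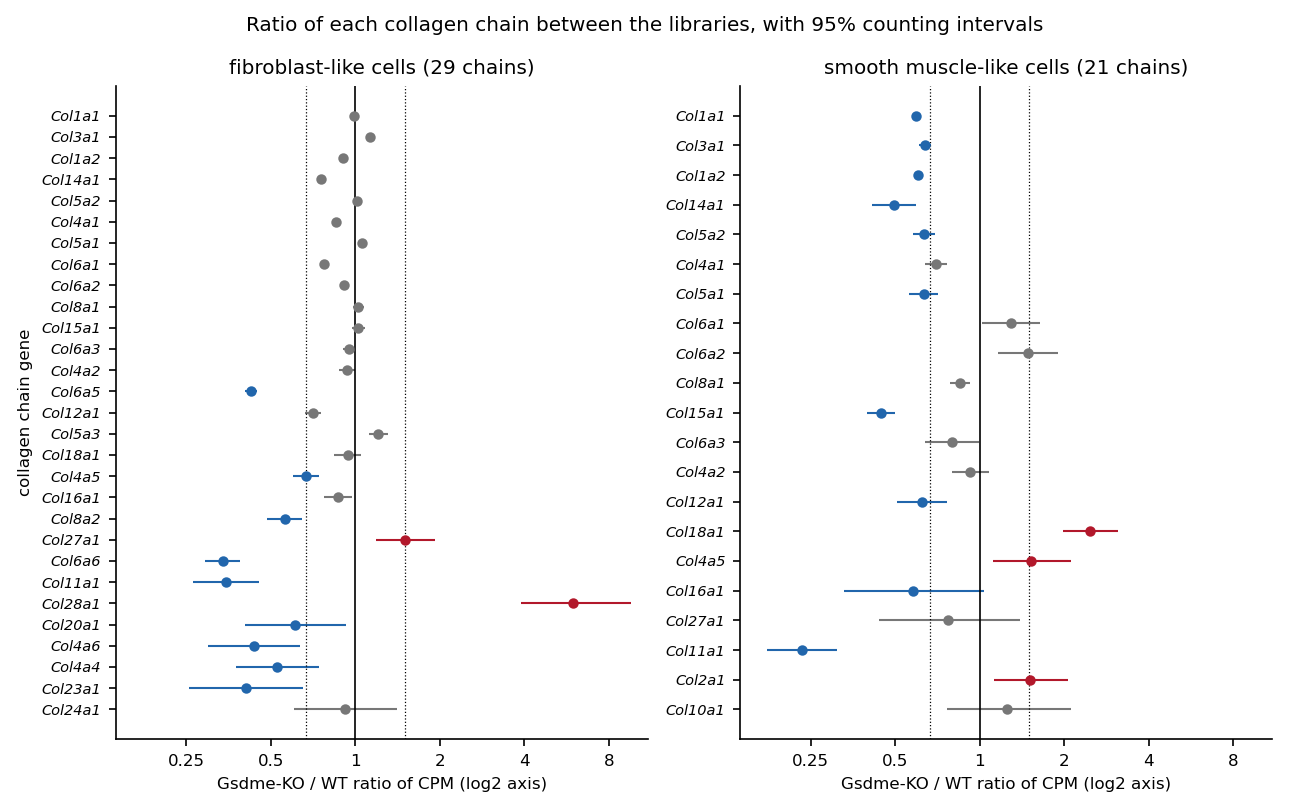
Points give the Gsdme-KO over WT ratio of CPM on a log2 axis for each chain with at least 50 UMIs in fibroblast-like (29 chains) and smooth muscle-like cells (21 chains), with 95% counting intervals; blue is lower and red higher past 1.5-fold (dotted lines). In smooth muscle-like cells 10 chains are lower, and in fibroblast-like cells the abundant chains lie near 1 with Col6a5 at 0.424 and Col28a1 at 5.98.

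In fibroblast-like cells the abundant fibrillar chains differed little and minor chains differed more. Of 29 chains compared, 9 were lower and 2 higher, where 11.5% of all 11866 genes were lower and 4.9% higher. The median log2 ratio was -0.15 over the chains and -0.13 over all genes. Among the 6 most abundant, the ratio was 0.992 (0.985 to 0.998) for Col1a1, 1.13 (1.12 to 1.14) for Col3a1, 0.902 (0.896 to 0.909) for Col1a2, 1.01 (0.986 to 1.04) for Col5a2, 0.850 (0.822 to 0.879) for Col4a1 and 0.754 (0.743 to 0.765) for Col14a1. The side of 1 for Col1a1, Col1a2 and Col5a2 turned under some scalings or weightings.

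Among the type VI chains, Col6a5 and Col6a6 passed 1.5-fold and the other 3 compared did not. Col6a1, Col6a2 and Col6a3 had ratios of 0.776, 0.912 and 0.949, whereas Col6a5 had 0.424 (0.403 to 0.446) and Col6a6 0.337 (0.291 to 0.390). Shares of fibroblast-like cells with a UMI were 41.1% and 28.45% for Col6a5 and 24.3% and 11.98% for Col6a6. Over the alternatives tried, Col6a5 lay between 0.385 and 0.491 and Col6a6 between 0.266 and 0.519. The other lower chains were Col4a5 (0.667, at the threshold), Col4a6 (0.436), Col4a4 (0.527), Col8a2 (0.559), Col11a1 (0.347), Col20a1 (0.610) and Col23a1 (0.408). Col4a6, Col4a4, Col20a1 and Col23a1 were below 10 CPM in both libraries. Col20a1 was at 1.01 with at most 10% mitochondrial UMIs, and Col4a4 was at 6.05 in the 113 WT and 368 Gsdme-KO cells without a UMI of Ptprc, C1qa, C1qb or Lyz2.

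Col28a1 and Col27a1 were the higher chains. Col28a1, a chain known from peripheral nerve, was at 2.59 and 15.5 CPM, a ratio of 5.98 (3.91 to 9.598), with UMIs in 1.88% and 8.01% of cells. In this class 6 Schwann cell markers, 1 of them at 0 in Gsdme-KO, summed to 29.3 and 2.97 CPM. Col27a1 had a ratio of 1.501 (1.18 to 1.92), at the threshold, and lay between 1.03 and 1.90 over the alternatives. In the same cells 9 macrophage markers, all detected, summed to 532 and 277 CPM. Their part in these ratios was not tested.

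Fibroblast-like cells were not the same mixture in both libraries. Cluster 3 made up 51.9% and 28.45% of them, cluster 4 made up 34.9% and 31.4%, and cluster 7 made up 13.0% and 37.8%. The clusters differed in collagen: Col1a1 was at 22283 CPM in cluster 3, 7727 in cluster 4 and 14154 in cluster 7 of WT, and Col8a1 at 596, 41.1 and 128 CPM. Ratios were therefore also taken within each cluster.

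Some chains had other ratios within clusters than in the whole class. Col8a1 had a ratio of 1.02 over the whole class but 1.51 (1.43 to 1.59) in cluster 3, 2.85 (2.36 to 3.46) in cluster 4 and 1.40 (1.19 to 1.65) in cluster 7. With equal weight for the 3 clusters it was 1.56. Col8a2 went the other way, from 0.559 in the class to 0.970 (0.830 to 1.13) in cluster 3, which held 344 of its 363 WT UMIs. Col12a1 was at 0.707 in the class and at 0.950, 1.27 and 1.34 in clusters 3, 4 and 7, and Col4a5 at 0.919, 0.635 and 1.36. Col4a4 (1.03) and Col4a6 (0.790) in cluster 3 had intervals that held 1. Col11a1 was at 0.347 in the class but 0.689 (0.521 to 0.907) in cluster 3, and at 0.683 with equal cluster weights. In WT it had 136 UMIs in cluster 3, 0 in cluster 4 and 2 in cluster 7.

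Other chains kept their direction in all 3 clusters. Col6a5 was at 0.359, 0.583 and 0.623, Col6a6 at 0.496, 0.402 and 0.285, Col4a1 at 0.739, 0.643 and 0.770, and Col14a1 at 0.878, 0.704 and 0.807. Col28a1 was higher in the 2 clusters with enough UMIs, at 3.08 (1.65 to 6.12) in cluster 3 and 8.07 (3.10 to 29.9) in cluster 7. Col3a1 was at 1.09, 1.11 and 1.07. With equal weight for clusters, 4 chains were lower (Col6a5, Col6a6, Col20a1 and Col23a1) and 2 higher (Col8a1 and Col28a1).

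**Figure D4:**
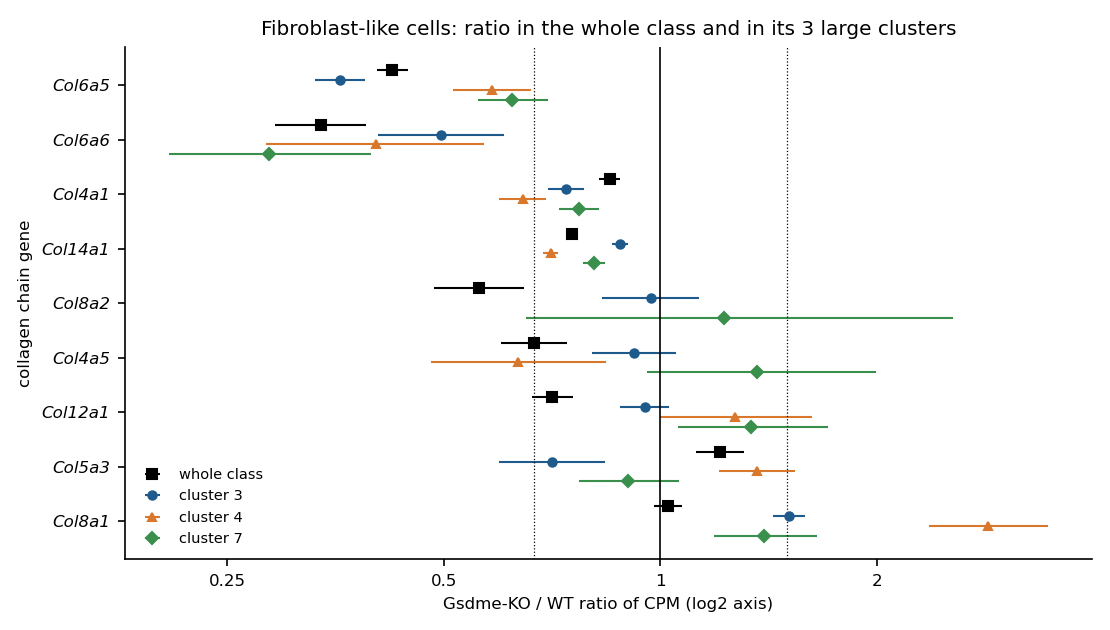
Symbols give the Gsdme-KO over WT ratio of CPM on a log2 axis for 9 chains in all fibroblast-like cells (black squares) and in clusters 3, 4 and 7, with 95% counting intervals; dotted lines mark 1.5-fold, and a chain with under 50 UMIs in a cluster has no point there. Col6a5 and Col6a6 are below 1 in each cluster, while Col8a1 is at 1.02 in the class and above 1 in each cluster.

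Endothelial-like and mesothelial-like cells gave fewer comparisons. Of 15 chains in endothelial-like cells, 3 were lower (Col1a1 at 0.467, Col3a1 at 0.599 and Col1a2 at 0.550) and 1 was higher (Col12a1 at 3.15, 1.58 to 6.97), beside 8.67% lower and 6.34% higher of 5756 genes. Col4a1, Col4a2 and Col18a1, chains of their own basement membrane, were at 0.875 (0.817 to 0.936), 0.844 (0.750 to 0.950) and 1.22 (1.01 to 1.48). Col5a2 was at 0.991 and Col14a1 at 0.758. Col4a1 and Col14a1 were at 1.29 and 3.09 without cells holding Ptprc, C1qa, C1qb or Lyz2 (38 WT and 66 Gsdme-KO cells left). The direction of the type I and III ratios depended on how cells were weighted: as a mean over cells Col1a1 was at 1.25 and Col3a1 at 1.28, and the collagen total at 1.10 in place of 0.846. The 10 fibroblast markers, none at 0, summed to 1229 and 841 CPM in endothelial-like cells, and their part was not tested.

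Of 13 chains in mesothelial-like cells 1 was lower, Col14a1 (0.634, 0.481 to 0.835), and 1 was higher, Col4a2 (1.57), whose interval held 1 (0.848 to 3.07). Over 2887 genes 15.4% were lower and 10.2% higher. Col3a1 was at 0.695 (0.648 to 0.745), with Col1a1 at 1.08, Col1a2 at 1.09, Col5a2 at 1.03 and Col4a1 at 1.29. As a mean over cells Col14a1 was at 1.08 and Col4a2 at 0.731. Col4a1 was at 0.813 at clustering resolution 2, and Col5a2 at 0.625 after thinning. All 6 Schwann cell markers were also detected in this cluster, summing to 1409 and 704 CPM. So were the 10 fibroblast markers, which summed to 9923 and 7033 CPM. Relative to fibroblast-like cells, the median fibroblast marker was at 4.6% and 8.8% and the highest at 117% and 115%. The part of these markers was not tested.

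Immune classes carried few collagen UMIs. Collagen was 0.0513% to 0.259% of UMIs in WT immune classes with over 200 cells, and Col1a1 ranged from 104 to 651 CPM over the 9 named immune classes of WT. In WT monocyte-like cells the whole collagen sum was at 1.04% of its fibroblast-like share and the median of 10 fibroblast markers at 1.07%. In T cell-like cells these were 1.46% and 1.26%, and in macrophage-like cells 1.70% and 1.11%. Col1a1 was at 1.37% of its fibroblast-like level in neutrophil-like, 0.822% in monocyte-like and 0.945% in dendritic-like cells of WT. No expression by immune cells was read from levels of this size.

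A few chains stood at higher fractions of their fibroblast-like level. Col15a1 was at 110 CPM (96.2 to 125) in WT and 107 CPM (93.3 to 122) in Gsdme-KO neutrophil-like cells, 44.6% and 42.4% of its fibroblast-like level. The WT value was 76.3% with at most 10% mitochondrial UMIs. It had UMIs in 14.8% and 13.2% of these cells, at median depths of 1690 and 1598 UMIs, against 1.81% and 2.16% of B cell-like cells at 2189 and 2516 UMIs. Macrophage-like cells had 56.5 and 49.1 CPM of Col15a1, with 28.8% and 24.5% of cells. Unnamed clusters 2 and 12, whose best match was the macrophage marker list, had less of it. Cluster 2 had 8.61 and 5.83 CPM and cluster 12 had 22.0 and 22.1 CPM. Monocyte-like cells had 9.98 and 8.27 CPM, T cell-like cells 8.17 and 12.9 CPM and dendritic-like cells 8.49 and 7.07 CPM. After thinning to 1000 UMIs, 8.84% and 9.18% of neutrophil-like and 5.23% and 5.46% of macrophage-like cells held a Col15a1 UMI, beside 0.470% and 0.760% of dendritic-like cells.

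Col14a1 stood out in macrophage-like cells (1630 WT and 1046 Gsdme-KO cells), with 212 CPM (204 to 220) and 122 CPM (114 to 130), a ratio of 0.575 (0.533 to 0.620). It had UMIs in 56.1% and 40.8% of these cells. It was at 6.53% and 4.98% of its fibroblast-like level, where Col1a1 was at 1.18% and 0.918%. Platelet-like cells of WT had 6.45% for Col14a1 but also 4.17% for Col1a1. Its ratio was below 1 in each macrophage-like cluster: cluster 1 had 189 and 111 CPM, cluster 6 had 281 and 184.5 CPM, and cluster 21 had 189 and 76.8 CPM. The direction was not particular to these cells. The ratio of Col14a1 was 0.754 in fibroblast-like and 0.541 (0.388 to 0.751) in monocyte-like cells. It was 0.826 (0.639 to 1.07) in neutrophil-like and 1.23 (0.786 to 1.93) in T cell-like cells. All collagen of the macrophage-like class had a ratio of 0.769 (0.743 to 0.796). After thinning, 17.5% and 11.1% of macrophage-like cells held a UMI, and 5.16% and 4.56% of dendritic-like ones. The trait did not hold for all macrophage-related cells. Unnamed clusters 2, 12 and 19 also matched the macrophage marker list best. There Col14a1 was at 1.41%, 1.83% and 1.58% of its fibroblast-like level in WT. Cluster 2, led by Lyve1, had 45.6 and 33.9 CPM of Col14a1. Dendritic-like cells had 47.5 and 14.8 CPM of Col27a1, from 56 and 23 UMIs, a ratio of 0.311 (0.183 to 0.514). Its fibroblast-like levels were 10.3 and 15.5 CPM. The class held 2 clusters in different proportions. Cluster 24, led by Ccr7 and Ccl22 (44 and 22 cells), had 37 and 6 of the Col27a1 UMIs, at 161 and 67.4 CPM, a ratio of 0.419 (0.145 to 1.002). Cluster 14 (187 and 265 cells) had 20.04 and 11.6 CPM, a ratio of 0.578 (0.282 to 1.175). The interval held 1 within both clusters.

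**Figure D5:**
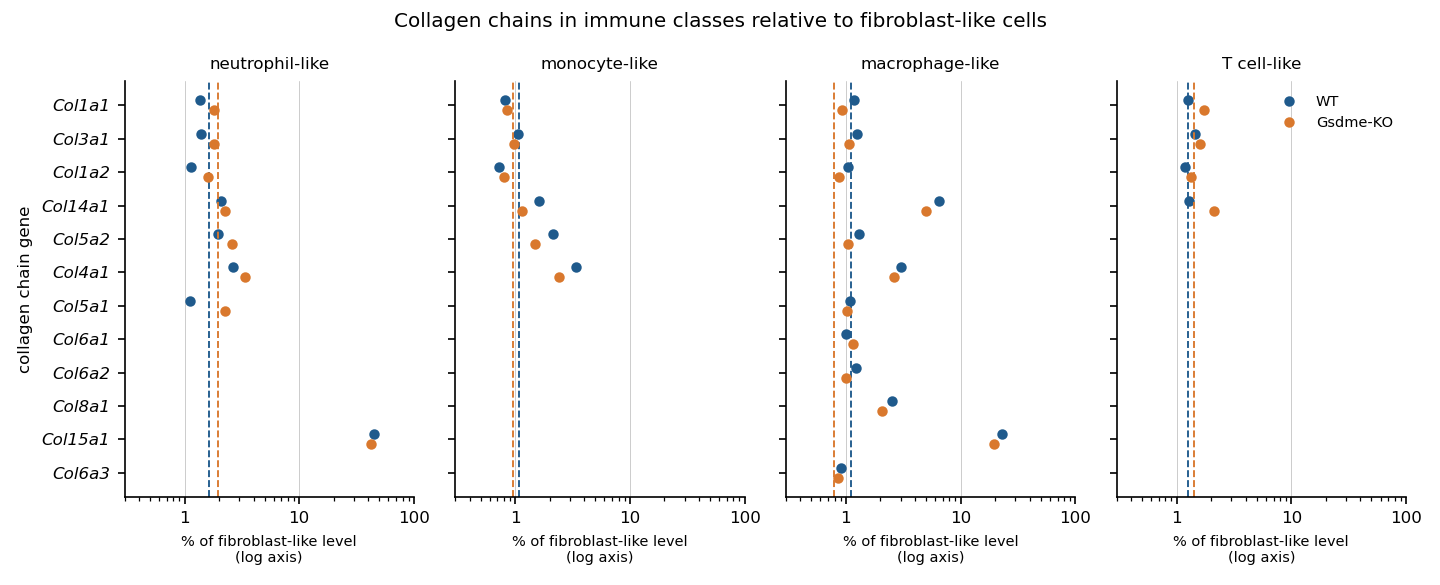
Points give each of the 12 most abundant chains in 4 immune classes as a percent of its fibroblast-like level on a log axis, in WT (blue) and Gsdme-KO (orange), for chains with at least 50 UMIs in the class; dashed lines are the medians of 10 fibroblast markers. Most chains lie near the dashed lines, Col15a1 is at 44.6% and 42.4% in neutrophil-like cells, and Col14a1 is at 6.53% in WT macrophage-like cells.

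Genes that make, cross-link, bind or degrade collagen were described as 7 lists with 67 genes, of which 59 could be compared in fibroblast-like cells. Of these 9 were lower and 2 higher, again beside 11.5% and 4.9% of all genes. In the list of prolyl and lysyl hydroxylation, which readies chains for winding, 10 of 12 genes had ratios over 1, beside 35.25% of all genes, and none passed 1.5-fold. With TMM factors these were 11 of 12 and 49.6%. Its extremes were P4ha1 (0.901) and P3h3 (0.943) against Plod2 (1.39, 341 and 473 CPM) and Colgalt1 (1.38). The folding and export list ranged from Sec24d (0.844) and Mia3 (0.852) to Ppib (1.27) and Fkbp10 (1.29). Among enzymes that trim the ends of procollagen, Adamts3 was higher (1.68), Bmp1 was at 1.25, and Adamts2 (0.874) and Pcolce2 (0.908) were lowest.

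Cross-linking enzymes had a median log2 ratio of 0.35, with Loxl2 at 1.34 and Lox at 1.33 (1516 and 2015 CPM), Loxl1 at 1.11 and Loxl4 at 0.925. Of 8 fibril-associated proteoglycans 3 were lower, Ogn (0.496, 1233 and 612 CPM), Fmod (0.577) and Podn (0.639), while Aspn (1.18) and Bgn (1.20) were highest. Of 8 collagen-degrading genes all had ratios below 1, beside 64.75% of all genes. With TMM factors 6 of the 8 were below 1, beside 50.4% of all. Lower past 1.5-fold were 3: the collagenase Mmp13 (0.0875, 30.1 and 2.64 CPM), Ctss (0.503) and Mmp9 (0.478). Ctsb and Mmp2 were at 0.929 and 0.977. Of 10 receptors 3 were lower, Lair1 (0.338), Itga11 (0.568) and Mrc1 (0.641), and Ddr1 was higher (1.52), with Itgb1 at 1.03. Ctss, Mmp9, Mmp13, Lair1 and Mrc1 are also known from macrophages, whose summed markers were 532 and 277 CPM in this class, as given above. The part of macrophages in these ratios was not tested.

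The same lists in smooth muscle-like cells had a median log2 ratio of -0.23. Of 50 genes compared 9 were lower and 2 higher, and 13 had ratios over 1, beside the 9.92% lower and 10.8% higher of all genes and 48.7% with ratios over 1. The lower ones were Pcolce (0.381, 416 and 159 CPM), an enhancer of propeptide removal, Fmod (0.416), Ctsk (0.451), Mmp14 (0.559), P4ha1 (0.563), P4ha3 (0.590), P3h1 (0.617), Fkbp14 (0.645) and Loxl2 (0.665). The higher ones were Mrc1 (3.75) and Pcolce2 (2.11). Mrc1 is also in the list of 9 macrophage markers, which summed to 982 and 989 CPM in smooth muscle-like cells. The part of macrophages was not tested. Serpinh1, the collagen chaperone, was at 0.833 and Lox at 0.797.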

How the data were processed

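The deposited values are raw counts, whole numbers for each gene in each barcode. They were taken as UMIs because of the platform and STARsolo. If they were reads, the intervals would be too narrow. CASAVA 1.8, STARsolo and mm10 are named in the submitters' processing notes, with no role or order. Which annotation was counted is not stated in those sources, and positions come from GENCODE M21. The lowest total was 500 UMIs per barcode. Cells with at least 500 UMIs, 250 genes and at most 25% mitochondrial UMIs were kept. Scrublet marked 0 and 1 cells and so has not worked. With all collagen genes left out, 2000 variable genes, 30 components, 15 neighbours and Leiden resolution 1 (scanpy 1.11.5) gave the clusters. Classes were named "X-like" after the marker list with the highest mean log2 fold over the other cells. The list needed a raised mean and at least 3 markers detected in 25% of cells. A shallow cluster with no marker of its list among its 10 leading genes stayed unnamed. So did a cluster with more leading genes from another list.

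For each class of a library, counts were summed and divided by the total of that class (CPM). As each UMI counts 1 transcript, CPM was not divided by gene length. Sums carry exact Poisson, shares Clopper-Pearson and ratios conditional binomial 95% intervals. Only the ratio intervals were tried on simulated counts, which were independent Poisson draws, the model these intervals assume. That trial cannot show how the intervals hold where UMIs clump in a few cells. Ratios in the main comparison needed 50 UMIs over both libraries and 50 cells in each. Those of Col27a1 within the dendritic-like clusters had no such minimum, and those of single chains under alternative settings allowed fewer cells and UMIs. Chains with at least 500 UMIs were described in every stromal class, those with fewer but at least 50 by their highest class, and the rest by total. Of each pathway list the 2 most extreme genes each way in fibroblast-like cells, at 10 CPM or more in either library, were named. Genes outside this rule were chosen after their values were seen. Of the 67 pathway genes 66 matched a feature. Protein sequences were not used here. edgeR 4.0.16 gave TMM factors. The members, lists and rules were chosen with earlier results of these data known.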

Additional observations from a re-analysis of the deposited data

Results flagged for a closer look

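Chains that passed 1.5-fold in opposite directions in a pair of named classes, with both intervals off 1, were singled out. Col12a1 had a Gsdme-KO over WT ratio of 3.15 in endothelial-like cells (14.9 and 47.0 CPM) and 0.622 in smooth muscle-like cells (382 and 237.5 CPM). Over the alternatives it ranged from 1.24 to 7.48 in the former and from 0.606 to 1.35 in the latter. Col4a5 had a ratio of 1.52 in smooth muscle-like cells (120 and 182 CPM) and 0.667 in fibroblast-like cells (69.1 and 46.1 CPM). In the alternatives it stayed between 1.17 and 1.75 in the former and between 0.664 and 0.935 in the latter. Col27a1 had a ratio of 1.501 in fibroblast-like and 0.311 in dendritic-like cells. In dendritic-like cells Col1a1, Col3a1, Col1a2 and Col5a2 had ratios of 3.55, 3.44, 3.41 and 3.552, where 5% of the Gsdme-KO cells held 75.4% of collagen UMIs. Against these, Col1a1 was at 0.594, Col3a1 at 0.638, Col1a2 at 0.605 and Col5a2 at 0.633 in smooth muscle-like cells, and the first 3 were at 0.467, 0.599 and 0.550 in endothelial-like cells. Col3a1 was also at 1.61 in B cell-like cells, from 84 and 140 UMIs, at 1.06% and 1.51% of its fibroblast-like level. There 5% of the Gsdme-KO cells held 44.9% of collagen UMIs. Col5a1 had 2.14 in neutrophil-like and 0.631 in smooth muscle-like cells. The former came from 16 and 34 UMIs, at 1.12% and 2.26% of its fibroblast-like level. No expression by immune cells was read from levels of this size. With 1 library per group the difference between classes was not tested for any of these chains.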

How the results depend on the processing

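No paired analysis was possible because the labels give 1 library per group and no replicate numbers. The collagen share in WT fibroblast-like cells was 4.96% with collagen genes allowed in clustering, 4.14% at resolution 2, 4.89% with at least 1000 UMIs per cell, 4.1% with at most 10% mitochondrial UMIs, 5.06% without the 5% highest Scrublet scores, 4.59% thinned to 1000 UMIs, 4.6% as a mean over cells, 4.76% with equal cluster weights and 4.6% without cells holding Ptprc, C1qa, C1qb or Lyz2. In Gsdme-KO it was 4.51% at resolution 2, 4.81% at resolution 0.5, and 4.79%, 3.94%, 4.92%, 4.51%, 4.51%, 4.96% and 4.3% in the same order from the 1000 UMI minimum on. The total collagen ratio of that class was 0.975 with collagen genes allowed, 0.974 and 1.09 at resolutions 0.5 and 2, 0.961 with 10% mitochondrial UMIs, 0.972 without high scores, 1.07 with TMM or median-of-ratios factors, 1.04 with equal weights and 0.934 without the immune-marker cells. In smooth muscle-like cells it was 0.661 (resolution 0.5), 0.638 (1000 UMIs), 0.642 (10% mitochondrial), 0.647 (scores), 0.684 (thinned), 0.612 (without collagen UMIs in the total) and 0.687 (mean over cells). In endothelial-like cells it was 0.895, 0.932, 1.1 and 1.46 with 10% mitochondrial UMIs, thinned, as a mean over cells and without immune-marker cells. In mesothelial-like cells it was 0.824 (resolution 2), 0.832 (1000 UMIs), 0.833 (10% mitochondrial), 0.941 (TMM), 0.939 (median of ratios) and 0.958 (mean over cells). Of the 2 higher chains in fibroblast-like cells 1 was left with 1000 UMIs, 10% mitochondrial UMIs, scores, thinning, collagen UMIs out of the total, the mean over cells or a fold of 2, and 0 without immune-marker cells. Of the 9 lower chains there were 4 with 10% mitochondrial UMIs, thinned or with equal weights, 5 with at least 200 UMIs or a fold of 2, and 3 without immune-marker cells. In smooth muscle-like cells 1 chain was higher at resolution 0.5, without collagen UMIs or at a fold of 2, 0 with 10% mitochondrial UMIs, 5 without high scores and 6 with no minimum, and 3 were lower at a fold of 2. Other counts stayed within 1.5 times the value reported. Over the alternatives, 19 chain ratios crossed 1 and 29 kept their side. Among ratios past 1.5-fold, those that crossed were Col4a2 in mesothelial-like cells (0.887 at resolution 2, 0.641 thinned, 0.731 as a mean over cells) with Col14a1 (1.08, mean over cells), Col20a1 (1.01, 10% mitochondrial) and Col4a4 (6.05, without immune-marker cells) in fibroblast-like cells, Col12a1 (1.35, thinned) and Col2a1 (0.949, mean over cells) in smooth muscle-like cells, and in endothelial-like cells Col3a1 (1.14 thinned), Col1a1 and Col3a1 (1.25 and 1.28, mean over cells) and Col1a1, Col3a1 and Col1a2 (1.31, 1.36 and 2.06, without immune-marker cells). These were 9 of 32 chain ratios past 1.5-fold. Among the other 10 that crossed, Col14a1 reached 3.09 and Col4a1 1.29 in endothelial-like cells. The cause was not tested, though thinning and the immune-marker rule leave fewer UMIs and cells: 17 WT smooth muscle-like and 15 WT mesothelial-like cells remained under the latter, too few for a ratio. Depth limits the comparison of chains with under 50 UMIs in a class.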

Other observations

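Unnamed cluster 11 (205 WT and 381 Gsdme-KO cells) had shallow cells with medians of 791 and 1027 UMIs, fibroblast genes among its detected markers, and collagen at 4.62% and 3.196% of UMIs. Unnamed cluster 13 (177 and 359 cells) had 0.765% and 0.831%. In Gsdme-KO dendritic-like cells the 5% of cells with the most collagen held 75.4% of the class's collagen UMIs, and 1 cell alone held 27.9%. In WT that 5% held 22.6%. In Gsdme-KO plasma cell-like cells (42 cells) 1 cell held 50.1%.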
